A study of Mus musculus with 6 samples.

Results

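The genes examined were 7 members of the small heat shock protein family, Cryab, Hspb1, Hspb2, Hspb3, Hspb6, Hspb7 and Hspb8, together with Bag3. The 8 genes were chosen by name, out of 21887 protein-coding genes of the RefSeq table, with earlier results of these data known. For each gene all H3K27ac peaks overlapping the annotated gene body (mm10) plus 10 kb on each side were collected, and this stretch is called its window. The windows were 20.8 to 43.4 kb long. The RefSeq gene span of Cryab runs across the whole of Hspb2, so the window of Hspb2 lies inside that of Cryab and the 8 genes have 7 separate loci.

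Acetylation of lysine 27 on histone H3 (H3K27ac), found at promoters and enhancers in use, was mapped by CUT&RUN, in which an antibody guides a nuclease to cut out the marked chromatin. Nuclei were sorted with an antibody to PCM-1, a protein at the nuclear envelope of cardiomyocytes, from left ventricles of FVB mice aged 8 to 12 weeks. The group labelled WT had no deletion named in its labels, and the group labelled HOM carried a CRISPR deletion of the neighbouring natriuretic peptide genes Nppa and Nppb, with 3 libraries each. The breeding notes also name Myh6-MerCreMer, nTnG and Sun1/sfGFP lines on the FVB/N background and do not say whether these libraries carried those alleles. The labels do not tie each library to a mouse of its own. A p-value here only sets the difference against other groupings of these libraries, whose spread may be technical.

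Small heat shock proteins are chaperones that bind unfolding proteins without using ATP and keep them from aggregating. Heart and skeletal muscle are among the tissues richest in them, and there they associate with desmin, titin, actin and the Z-disc. Bag3 is a co-chaperone that joins small heat shock proteins, above all Hspb8, to Hsp70, and with the ligase Stub1 it hands damaged proteins such as filamin C to autophagy. Heat shock factor 1, which induces many of these genes under stress, binds heat shock elements, inverted repeats of the bases GAA. Cryab and Hspb2 lie head to head and share a short intergenic stretch.

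The peak lists differed widely in length. In the order of replicates 1 to 3, which every series of values below follows, the WT lists had 21340, 72362 and 106605 peaks and those of HOM 48102, 1462 and 15184. Peaks of the WT libraries summed to 6.69, 31.6 and 55.7 Mb of genome and peaks of the HOM libraries to 17.2, 0.296 and 4.54 Mb. Read counts were not used here, so the depth is unknown. HOM replicate 2 stood apart with the shortest list, and results are given with and without it. The interval from Nppb to Nppa held 1, 2 and 4 peaks in WT and 0 in each HOM library. All 6 cardiomyocyte markers examined, such as Tnnt2 and Actc1, had a peak in their windows in every library except HOM replicate 2, which had none at any of them. Of 5 fibroblast markers, 1, Tcf21, had a peak in WT replicate 3 and none in the other libraries, and Col1a1, Col1a2, Pdgfra and Dcn had none in any (summed covered length 0 to 315 bp in WT against 0 bp in HOM). Endothelial markers with a peak numbered 1, 3 and 4 of 5 in WT against 2, 0 and 1 in HOM, with a summed covered length of 378 to 5570 bp in WT and 0 to 982 bp in HOM. Immune markers (0, 2 and 2 of 4 in WT, 2, 0 and 1 in HOM; 0 to 5631 bp and 0 to 463 bp) and smooth muscle and pericyte markers (1, 3 and 3 of 4 in WT, 1, 0 and 1 in HOM; 248 to 6371 bp and 0 to 232 bp) had peaks in some libraries. Among the markers of these types, Tie1, Ptprc, Csf1r and Rgs5 had no peak in any library. Pecam1 and Cspg4 had a peak in every library except HOM replicate 2. Cd68 had 17.1% of its window covered in WT replicate 3, and Acta2 had 6 and 7 peaks in WT replicates 2 and 3. The part of these other cell types in the results on the chaperone genes was not tested.

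The promoters are shown before the peaks, because 4 of them carry the same 8-base match to a heat shock element at or near the start site. RefSeq promoter sequences (GRCm38.p6, 250 bases before to 50 after the start) were found for 6 of the 8 genes, and Cryab and Hspb2 had no entry. The search was for the inner pairs of a heat shock element, GAANNTTC or TTCNNGAA, which read the same on both strands, so a single reading covers both strands. Capitals mark the matches. Printed are the 250 bases before the start of Hspb1 (chr5:135887669-135887918, plus strand), of the second listed start of Hspb6 (chr7:30553051-30553300, plus strand), of Hspb3 (chr13:113663677-113663926, minus strand) and of Bag3 (chr7:128523333-128523582, plus strand). For Hspb8 (chr5:116422844-116422873, minus strand) and Bag3 (chr7:128523603-128523632, plus strand) the match lies just after the start, and 30 bases around it are printed.
Hspb1: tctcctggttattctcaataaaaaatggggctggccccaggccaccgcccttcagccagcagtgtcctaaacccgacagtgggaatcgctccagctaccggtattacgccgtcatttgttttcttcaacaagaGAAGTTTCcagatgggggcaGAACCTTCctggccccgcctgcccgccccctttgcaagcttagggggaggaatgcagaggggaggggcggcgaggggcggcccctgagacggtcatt
Hspb6, second start: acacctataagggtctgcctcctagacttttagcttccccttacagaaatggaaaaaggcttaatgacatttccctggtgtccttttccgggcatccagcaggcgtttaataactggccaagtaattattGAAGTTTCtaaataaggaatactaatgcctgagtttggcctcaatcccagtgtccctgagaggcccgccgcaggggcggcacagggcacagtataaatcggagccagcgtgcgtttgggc
Hspb3: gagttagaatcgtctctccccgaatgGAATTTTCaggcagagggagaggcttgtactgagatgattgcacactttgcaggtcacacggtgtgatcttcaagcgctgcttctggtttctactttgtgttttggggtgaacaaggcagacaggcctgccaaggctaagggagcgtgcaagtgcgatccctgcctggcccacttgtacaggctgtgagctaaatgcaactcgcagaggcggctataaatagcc
Bag3: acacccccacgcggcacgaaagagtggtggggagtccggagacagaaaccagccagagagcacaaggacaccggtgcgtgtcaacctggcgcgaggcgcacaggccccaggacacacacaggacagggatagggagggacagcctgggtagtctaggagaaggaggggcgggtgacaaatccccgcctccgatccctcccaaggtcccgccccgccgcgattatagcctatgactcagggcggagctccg
Hspb8, match after the start: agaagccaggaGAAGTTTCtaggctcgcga
Bag3, match after the start: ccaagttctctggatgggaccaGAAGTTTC

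A match was found in the 300-base promoters of 5 of the 6 genes, Hspb1, Hspb3, Hspb6, Hspb8 and Bag3, and in 15.1% of all 32851 promoter entries. Counted by entry it was 5 of 7, since Hspb6 has 2 entries and the first listed start had no match. Hspb7 had none. The 8 bases GAAGTTTC, singled out after the matches were seen, stood in Hspb1 (117 bases before the start), Hspb6 (120 before the second start), Hspb8 (2 after) and Bag3 (42 after), and on either strand in 1.21% of all entries. Hspb1 had a further match, GAACCTTC, 97 bases before the start. The match of Hspb3, GAATTTTC, lay 224 bases before its start. Of the other motifs searched on both strands, the GC box GGGCGG was present at Hspb1, Hspb6, Hspb8 and Bag3 and in 35.7% of all entries. The TATA box TATAAA was present at Hspb3 and at the second start of Hspb6 and in 13.6% of entries. A MEF2-type site, searched as CTA and TAG with 4 bases between, overlaps that TATA box at Hspb3, was found at no other of the 6 genes and in 3.69% of entries. CCAAT was found at the first listed start of Hspb6 and in 37.4% of entries, and the GATA site AGATAA was found at none of the 6 genes and in 11.2% of entries. These matches describe letters only.

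A peak lay in the window of every one of the 8 genes in the 4 longest lists. In each WT library and in HOM replicate 1, 8 of 8 windows held a peak, against 26.2%, 50.8%, 60.4% and 40.6% of all protein-coding genes in the same libraries. In HOM replicate 3 it was 6 of 8, with Hspb1 and Hspb8 empty, against 20.5% of all genes. In HOM replicate 2 it was 1 of 8, Hspb7, against 2.44%. A peak in all 3 WT libraries was found for 8 members (7 with 1 or 5 kb on each side) and for 25.5% of all genes. A peak in these and also in HOM replicates 1 and 3 was found for 6 members, all but Hspb1 and Hspb8, and for 16.5% of all genes, or 11.2% of the 12785 genes no longer than Bag3, the longest member. The median share of the window covered by peaks was 3.7%, 17.5% and 24.7% over the members in WT against 8.41%, 0% and 0.897% in HOM. Over all protein-coding genes it was 0%, 0.131% and 0.875% in WT and 0% in each HOM library. The members are muscle chaperones by choice, so these counts describe them and do not test the family.

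**Figure D1:**
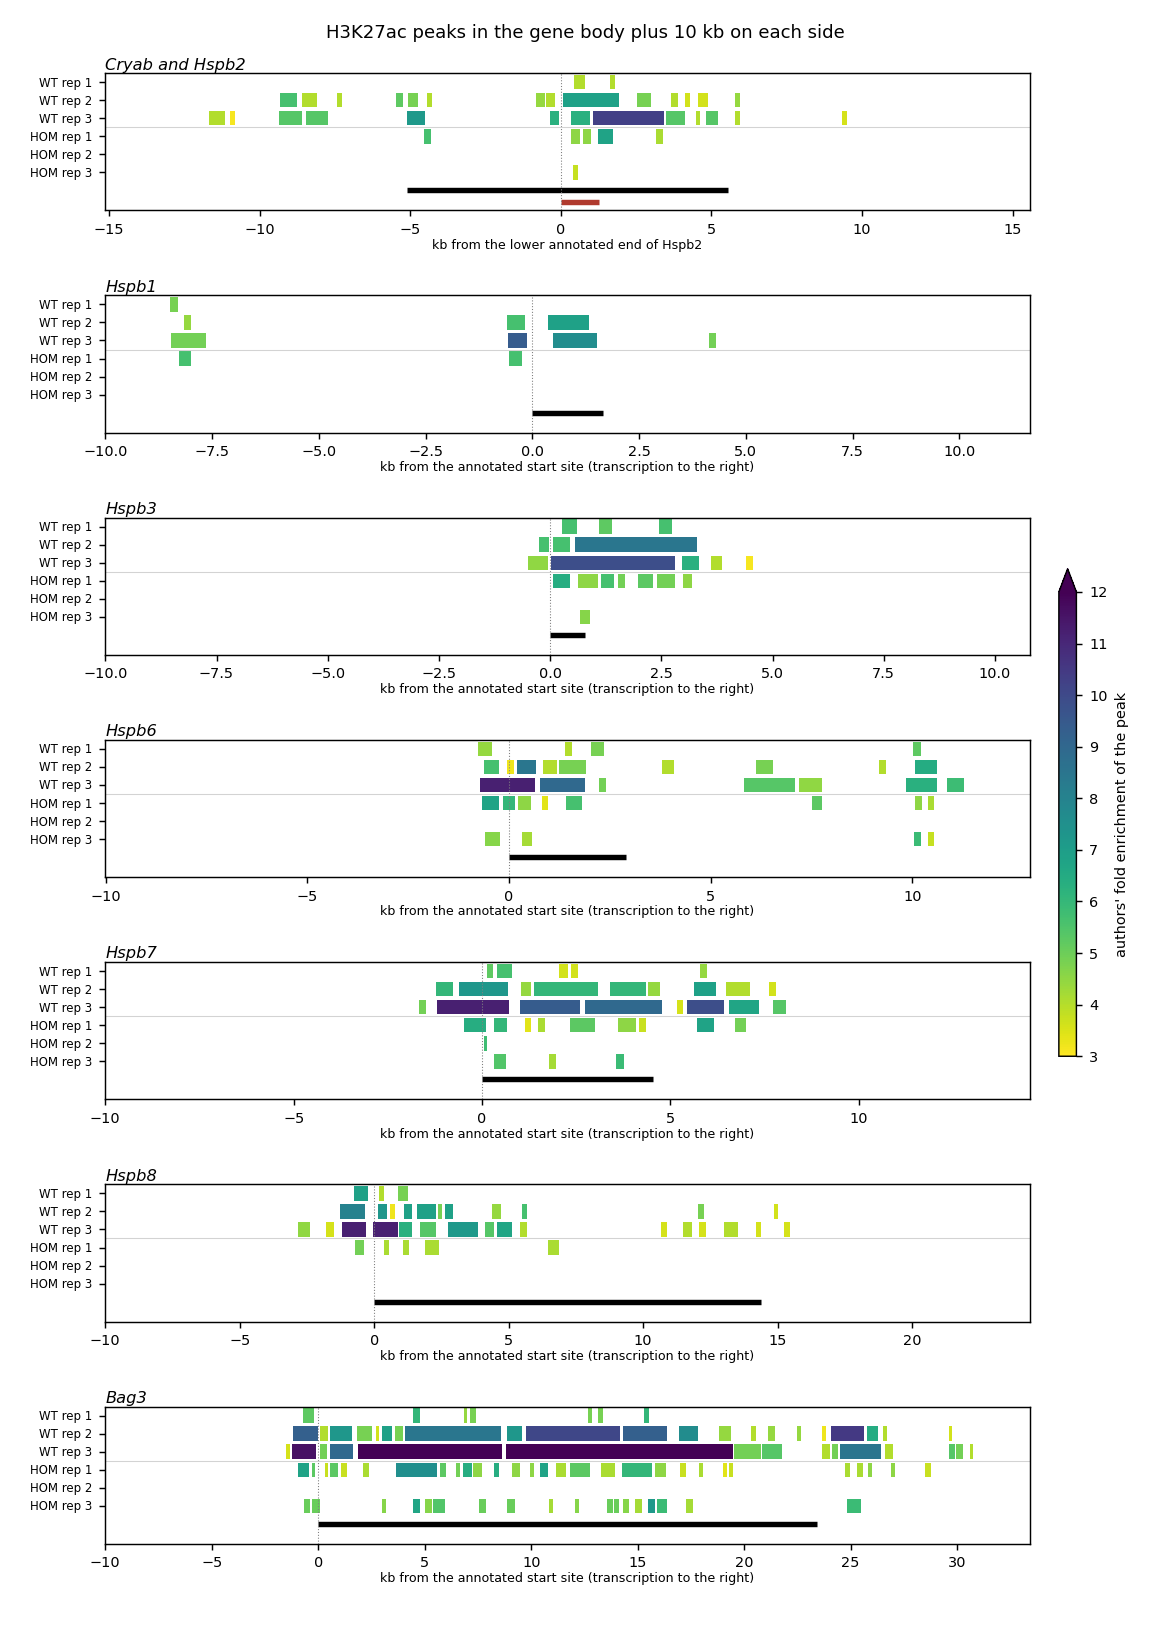
Called H3K27ac peaks in the 7 separate loci, with distance from the annotated start site in kb on the x axis (for Cryab and Hspb2, from the lower annotated end of Hspb2) and 1 row per library. Blocks are peaks coloured by the authors' fold enrichment, black bars are gene bodies and the red bar is Hspb2. Bag3 holds 7 to 29 peaks in each library except HOM replicate 2, which has a single block in all panels, at Hspb7.

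Bag3 had the longest covered stretch of the 8 genes in every library except HOM replicate 2, which had none there. Its window on chromosome 7 (gene body 128523583 to 128546981, 23.4 kb) contains no other annotated gene, so no peak there lay on another gene. Peaks numbered 7, 21 and 15 in the WT libraries against 29, 0 and 18 in the HOM libraries. They covered 2080, 20804 and 25962 bp in WT against 12129, 0 and 6161 bp in HOM, and the values of the genotypes overlapped. The shares of the gene body under a peak were 6.5%, 72.7% and 89.7% in WT against 44%, 0% and 21% in HOM. The number of genes with a higher share of their window covered was 20 in WT replicate 2, 29 in WT replicate 3, 34 in HOM replicate 1 and 21 in HOM replicate 3, and 426 in WT replicate 1. Bag3 thus stood within the leading genes of 4 lists and lower in the list of WT replicate 1.

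The widest peaks in Bag3 were those of WT replicate 3, the longest list. In that library a single peak from 128532405 to 128543038 was 10634 bp wide, and its neighbour from 128525436 to 128532211 was 6776 bp wide with a fold enrichment (signal over background as the peak caller gave it) of 17.5 and rank 146 of 106605. In HOM replicate 1 the widest peak was 1922 bp (128527215 to 128529136, fold 7.55, rank 1258 of 48102), and in HOM replicate 3 the strongest was 317 bp wide (fold 7.15, rank 391 of 15184). The strongest peak of WT replicate 1 had a fold of 6.05 and rank 1819 of 21340, and that of WT replicate 2 a fold of 10.5 and rank 600 of 72362. A rank is 1 plus the number of peaks in the same list with a higher fold, and ranks from lists of unequal length are not compared between libraries.

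Parts of Bag3 were called in every library other than HOM replicate 2. Bases under a peak in all 5 of these libraries were 768 of the 27077 bp called there. Genome-wide they were 2.45% of called bases, a similar share. At Bag3 these bases formed 4 segments. Of these, 2 lay upstream of the start (128522893 to 128523156 and 128523292 to 128523403), the latter reaching into the printed promoter. The other two lay inside the gene, 4.44 kb past the start (128528024 to 128528366, 343 bp) and 15.5 kb past it (128539071 to 128539119, 49 bp). In WT replicate 1 the strongest peak was a tie of 2 peaks, with summits 4578 and 15362 bp past the start. The strongest peaks of WT replicate 3 and HOM replicate 1 had their summits 4635 and 4689 bp past the start. That of HOM replicate 3 had its summit 15681 bp past the start and that of WT replicate 2 25466 bp past it, beyond the gene's end. Of the bases called in any of the 5 libraries at Bag3, 17.8% were called in at least 4 of them, against 8.52% of called bases genome-wide. The same share was 22.2% at Hspb3, 16.5% at Hspb6 and 10.3% at Hspb7, and below the genome-wide share at Hspb8 (5.49%), Hspb2 (4.57%), Cryab (4.25%) and Hspb1 (0%). Bases called in all 5 made up 317 of 6424 bp at Hspb6 and 218 of 8452 bp at Hspb7. At Cryab they made up 120 of 9515 bp, at Hspb2 120 of 8847 bp, and at Hspb1, Hspb3 and Hspb8 0.

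Cryab, or alpha-B-crystallin, and Hspb2 shared their peaks. The Cryab window on chromosome 9 (gene body 50745951 to 50756636) held 2, 14 and 13 peaks in the WT libraries against 5, 0 and 1 in the HOM libraries. The window of Hspb2 (50751072 to 50752354) held the same peaks except for 2 of WT replicate 3. The covered length in the Cryab window was 528, 5784 and 7580 bp in WT against 1507, 0 and 171 bp in HOM. HOM replicate 1 lay above WT replicate 1 and below the other WT libraries. The strongest peaks lay over Hspb2 and the stretch above it: from 50751159 to 50752998 in WT replicate 2 (1840 bp, fold 6.85, rank 7997 of 72362), from 50752141 to 50754488 in WT replicate 3 (2348 bp, fold 10.3, rank 4828 of 106605) and from 50752313 to 50752804 in HOM replicate 1 (492 bp, fold 6.79, rank 2648 of 48102). Their summits, 1406, 1473 and 1410 bp above the lower end of Hspb2, lay close together and just past its upper end. In WT replicate 1 and HOM replicate 3 the strongest peaks were weak for their lists, with ranks 16137 of 21340 and 13930 of 15184. That of HOM replicate 3 lay within Hspb2, and of the 2 tied peaks of WT replicate 1 one lay within it and the other (50752692 to 50752868) past its upper end. A single segment of 120 bp within Hspb2, from 50751518 to 50751637, was under a peak in all 5 libraries.

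Hspb7, the cardiovascular small heat shock protein that binds filamin C, was the only member with a peak in all 3 HOM libraries, which 2.13% of all genes had, and it had a peak in each WT library too. Its window on chromosome 4 (gene body 141420779 to 141425310) held 5, 9 and 8 peaks in the WT libraries against 9, 1 and 3 in HOM. They covered 1157, 6359 and 8035 bp in WT against 3338, 66 and 697 bp in HOM. Divided by the length covered genome-wide, the WT values became 173, 201 and 144 bp per Mb and the HOM values 194, 223 and 153. The genotypes overlapped, and the other members were at 0 in HOM replicate 2. The value of HOM replicate 2 came from a single peak of 66 bp, 57 to 122 bp past the start, with a fold of 5.78 and rank 950 among 1462. The gene body was covered to 21.5%, 82.7% and 90.6% in WT against 46.3%, 1.46% and 15.4% in HOM. A segment from 141421188 to 141421405, 409 to 626 bp past the start, was under a peak in all 5 other libraries. Past the gene's end 1 to 4 peaks were called in each WT library and 2 in HOM replicate 1. There HOM replicate 1 had its strongest peak of the window (141426476 to 141426942, fold 6.79, rank 2648 of 48102).

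Hspb8, the partner of Bag3 in chaperone-assisted autophagy, had no peak in HOM replicates 2 and 3. Its window on chromosome 5 (gene body 116408491 to 116422864, minus strand) held 3, 11 and 16 peaks in the WT libraries against 5, 0 and 0 in HOM. They covered 1029, 3788 and 7616 bp in WT against 1633, 0 and 0 bp in HOM. In bp per Mb covered genome-wide it was 154, 120 and 137 in WT against 94.9, 0 and 0 in HOM, so every WT library lay above every HOM library. Among all genes, 5.32% were separated in that direction and 0.164% in the opposite one, without HOM replicate 2 it was 5.5% and 2.7%, and 1 of 8 members is a count too small to set it apart from that background. The means were 136.8 ± 17 bp per Mb in WT against 31.65 ± 54.8 in HOM (SD, n = 3 each), and the exact permutation p was 0.1, the smallest the design allows, with a Benjamini-Hochberg adjusted value of 1 over all genes.

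The strongest peaks of Hspb8 lay at its start. The peak just upstream of the start had a fold of 6.86 and rank 707 of 21340 in WT replicate 1 (116423109 to 116423606). In WT replicate 2 it had a fold of 8.06 and rank 3648 of 72362 (116423222 to 116424120). In WT replicate 3 the upstream peak (116423169 to 116424049) was tied as strongest with a peak over the start itself (116421981 to 116422926), both with a fold of 11.2 and rank 3384 of 106605. In HOM replicate 1 the upstream peak was called at 116423251 to 116423595 with a fold of 4.91 and rank 15434 of 48102. In an alternative that dropped HOM replicate 2 and kept the 15184 strongest peaks of each list, the window had 852, 2483 and 1827 bp covered in WT and 0 in HOM replicates 1 and 3. The upstream peak of HOM replicate 1, at rank 15434, fell just past this cut, so the 0 of that library rests on a near miss. In that setting Hspb8 was the only member separated with WT higher, in bp as well as per Mb, against 3.31% and 2.81% of all genes. HOM was higher at 0 members in bp (0.397% of all genes) and at 1, Hspb6, per Mb (2.33%). Peaks upstream also overlap Gm42009, a long noncoding RNA gene, and much of the gene body overlaps another, Gm36841, and lists without strand cannot assign them.

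Hspb6, also known as Hsp20, a small heat shock protein phosphorylated by cAMP-dependent kinase, sat in the most crowded window. It lies on chromosome 7 (30552535 to 30555443) with 5 other protein-coding genes and a microRNA gene, Gm38670, in its window. Peaks numbered 4, 9 and 7 in the WT libraries against 8, 0 and 4 in HOM, and covered 1050, 3440 and 5664 bp in WT against 2231, 0 and 972 bp in HOM. Per Mb covered genome-wide, the WT libraries had 157, 109 and 102 bp and the HOM libraries 130, 0 and 214, so the genotypes overlapped. The strongest peaks of WT replicates 2 and 3 had fold enrichments of 8.46 and 11.2 (ranks 2756 of 72362 and 3384 of 106605), with summits 510 and 491 bp past the first listed start and thus before the second listed start at 30553301. Segments called in all 5 libraries other than HOM replicate 2 lay just before the first start (30551941 to 30552121), inside the neighbour Proser3, and 10.1 kb past it (30562614 to 30562749), inside Psenen, a subunit gene of gamma-secretase.

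Hspb3, a muscle-restricted member, lies on chromosome 13 (113662896 to 113663676, minus strand) within the long noncoding RNA gene Gm34586. Its window held 3, 3 and 5 peaks in the WT libraries against 7, 0 and 1 in HOM, covering 916, 3363 and 4020 bp in WT against 2244, 0 and 206 bp in HOM. HOM replicate 1 lay between the WT values and HOM replicate 3 below them. Much of the covered length lay outside the short gene, which held 36.9%, 18.1% and 18.9% of it in WT, 24.8% in HOM replicate 1 and 49% in HOM replicate 3. WT replicate 2 had a peak of 2745 bp running from the gene past its end (113660374 to 113663118, fold 8.46, rank 2756 of 72362), and WT replicate 3 one of 2784 bp (113660870 to 113663653, fold 9.86, rank 5722 of 106605).

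Hspb1, the widely expressed Hsp25, carried the least. No other gene is annotated in its window on chromosome 5 (gene body 135887919 to 135889563). It held 1, 3 and 4 peaks in the WT libraries against 2, 0 and 0 in HOM, covering 200, 1529 and 2467 bp in WT against 593, 0 and 0 bp in HOM. Peaks next to the start were called in WT replicates 2 and 3 and also in HOM replicate 1, and they ended 183, 121 and 240 bp before it. Over the gene body, peaks were called in WT replicates 2 and 3 only among the 6 libraries (fold 6.85 and 7.62, covering 58.5% and 62.3% of it). The peak of WT replicate 1 (135879426 to 135879625) lay far before the start, in a region (135879426 to 135880266) that joined it with peaks of WT replicates 2 and 3 and HOM replicate 1. It overlapped the peak of WT replicate 3 but not the other two, and 0 bases of the Hspb1 window were called in 4 or more of the 5 libraries other than HOM replicate 2.

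**Figure D2:**
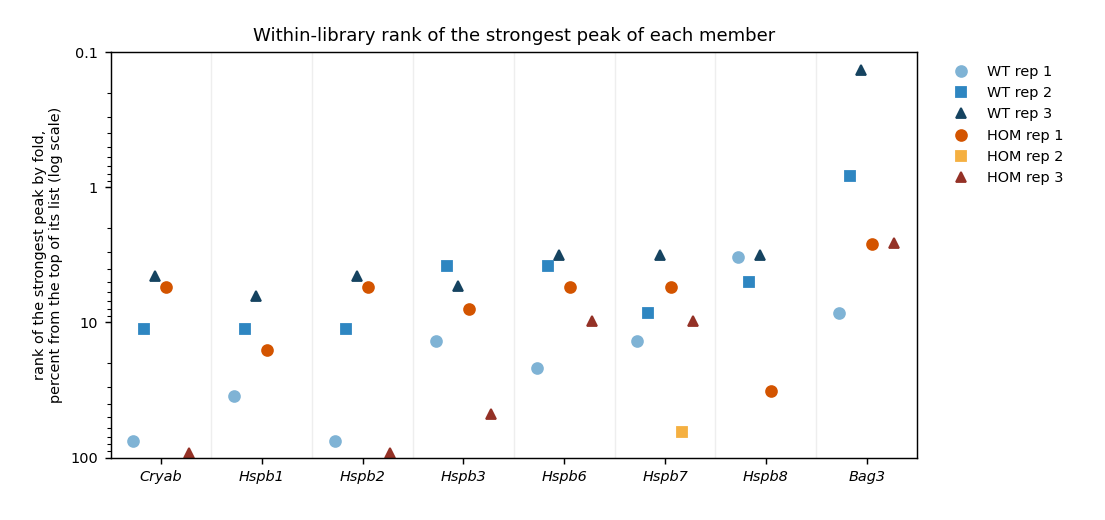
Rank of the strongest peak of each member by the authors' fold enrichment, as percent from the top of its own list on a reversed log scale, with 1 point per library that had a peak. Bag3 stands at 0.137% to 8.52%. Since the lists differ in length, points are read against other members in the same library and not across libraries. Cryab and Hspb2 share their points.

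Peaks near the start sites were compared with the start base itself, for Hspb6 at its first listed start. For the 6 genes with a listed start, a peak lay within 1 kb of it in 5, 6 and 6 genes in the WT libraries and in 6, 1 and 4 in the HOM libraries, against 11.4%, 31.4%, 41.6%, 22.3%, 0.314% and 7.68% of 17492 protein-coding genes. The start base was under a peak at 0, 3 and 3 of these genes in WT against 2, 0 and 1 in HOM. Among all genes with a peak within 1 kb, the start base was covered in 6.63%, 14.2%, 27.8%, 10.1%, 3.64% and 8.85% in the same order. Hspb7 and the first listed start of Hspb6 were covered in WT replicates 2 and 3 and HOM replicate 1, and Hspb1 and Hspb3 in none. The second listed start of Hspb6 was not under a peak in any library. At Hspb8 the gap between the nearest peaks on both sides of the start was 422 and 510 bp in WT replicates 1 and 2 and 756 bp in HOM replicate 1, and at Hspb1 it was 553 and 606 bp in WT replicates 2 and 3. Gaps also stood at Hspb3 (86 and 73 bp in WT replicates 2 and 3) and Bag3 (178 bp in WT replicate 3, 437 bp in HOM replicate 1). At Hspb6 the gap was 1810 bp in WT replicate 1 and 550 bp in HOM replicate 3.

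**Figure D3:**
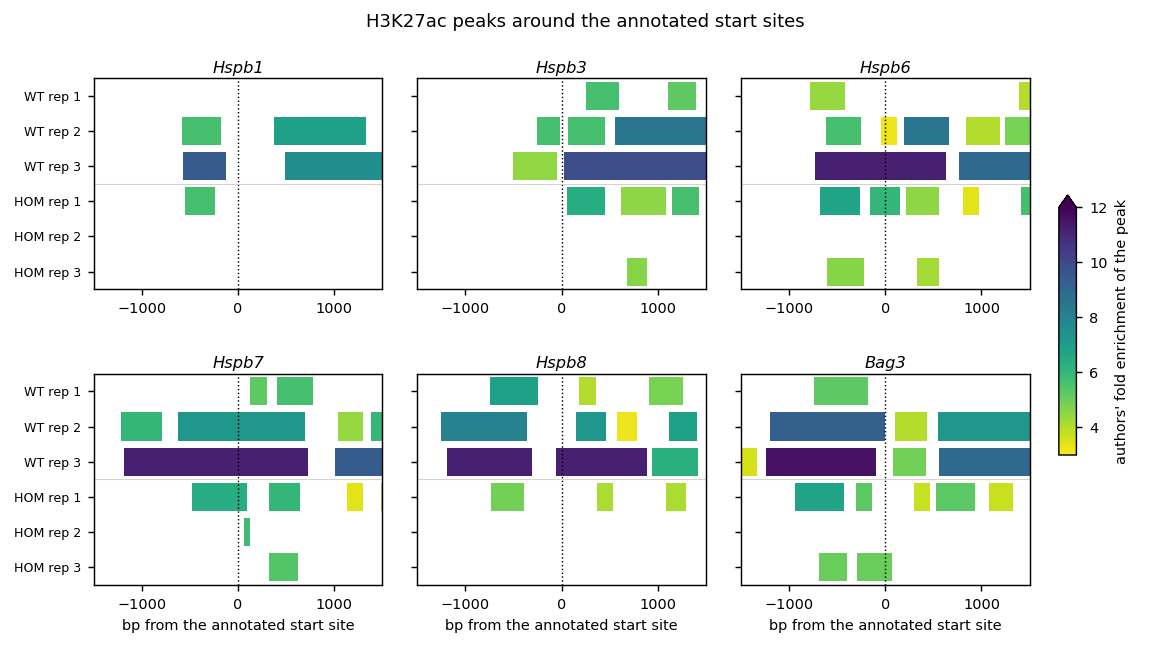
Peaks around the annotated start (first listed start for Hspb6) of the 6 genes with a promoter entry, with distance in bp along the direction of transcription on the x axis and 1 row per library, coloured by the authors' fold enrichment. The dotted line is the start site. Peaks stand on both sides of it with a gap between at Hspb1 in WT replicates 2 and 3 and at Hspb8 in WT replicates 1 and 2 and HOM replicate 1. So they do at Hspb3 in WT replicates 2 and 3, Bag3 in WT replicate 3 and HOM replicate 1, and Hspb6 in WT replicate 1 and HOM replicate 3.

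The heat shock element matches were set against the peaks. Both matches of Hspb1 were under a peak in 0 of 6 libraries, and the peak of WT replicate 3 ended 4 bp before the GAAGTTTC match. The matches of Hspb6, Hspb8 and Bag3 were each under a peak in 1 library, WT replicate 2 for Hspb6, WT replicate 3 for Hspb8 and HOM replicate 3 for Bag3. That of Hspb3 was under a peak in WT replicates 2 and 3. No factor was mapped in these libraries, and the overlap was not compared with other promoters.

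Between genotypes, no member passed the test. In bp, the mean covered length was lower in HOM than in WT at all 8 genes, from -1201 bp at Hspb1 (1399 ± 1140 bp in WT against 197.7 ± 342 in HOM, SD, n = 3 each) to -10190 bp at Bag3 (16282 ± 12600 in WT and 6097 ± 6060 in HOM). The exact permutation p was 0.2 at 7 genes and 0.3 at Bag3. After Benjamini-Hochberg adjustment over all 21887 genes each member had 0.865, which was also the smallest adjusted value of any gene. The median difference over all protein-coding genes was -183.3 bp, and the lists of HOM libraries were on the whole shorter. The 3 values of one genotype lay wholly above those of the other at 0 members, against 3.49% of all genes with WT higher and 0% with HOM higher, and without HOM replicate 2 against 3.49% and 0.00457%. Here 3 against 3 libraries cannot give a p below 0.1.

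**Figure D4:**
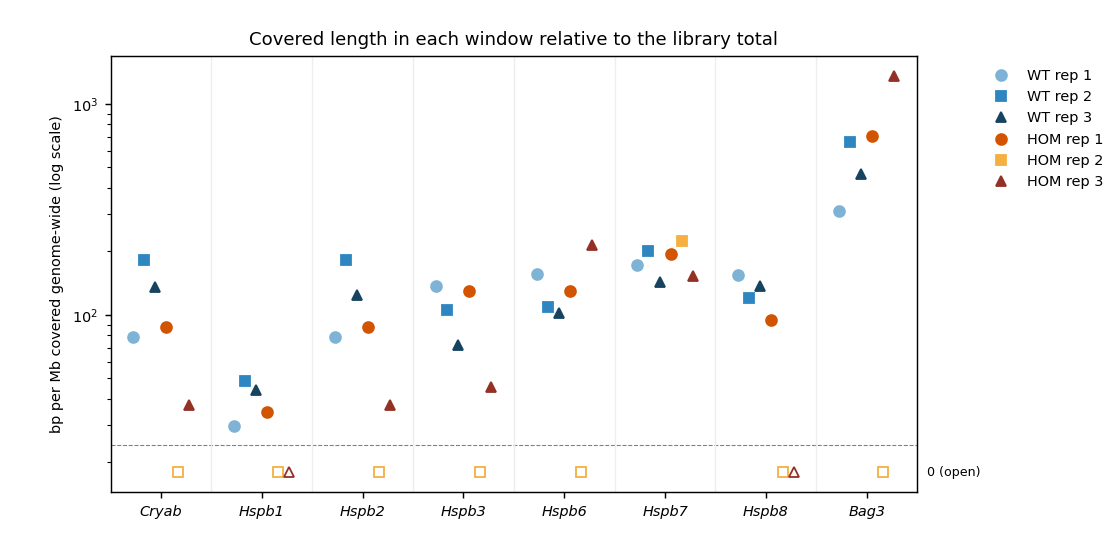
Covered length in each window divided by the length covered genome-wide in the same library, in bp per Mb on a log axis, with 1 point per library and windows without a peak drawn as open symbols below the dashed line. At Bag3 HOM replicates 1 and 3 lie at 705 and 1360, above the WT values of 311 to 658. HOM replicate 2 lies at 0 there, below them, so the genotypes overlap. At Hspb8 HOM replicate 1 lies at 94.9 and HOM replicates 2 and 3 at 0, below the WT values of 120 to 154.

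Relative to the length covered genome-wide, the direction varied among the genes. Means were lower in HOM at Cryab (WT 132.7 ± 52.1 bp per Mb, HOM 41.76 ± 44, with SD over 3 libraries and an exact permutation p of 0.2), Hspb2, Hspb1, Hspb3, Hspb6 and Hspb8, and higher at Hspb7 (172.8 ± 28.4 and 190.3 ± 35, exact permutation p = 0.5) and Bag3 (478.4 ± 174 and 687.2 ± 678, exact permutation p = 0.7). The adjusted value was 1 for each. Without HOM replicate 2 the HOM libraries lay above all WT libraries at Bag3 (705 and 1360 bp per Mb against 311, 658 and 466), by 552.4 on average (exact permutation p = 0.1, which is as low as 3 against 2 libraries can reach). Among all genes 2.7% were so separated. With the 5 lists limited to equal length the difference at Bag3 was 246.1 (exact permutation p = 0.5) and the groups overlapped, and without HOM replicate 3 it was -125.8. In bp the difference at Bag3 without HOM replicate 2 was negative, at -7137 bp. Leaving out HOM replicate 2 also changed the sign at Hspb6, from -7.914 to 49.37 bp per Mb. The difference at Hspb7 then fell from 17.47 to 0.9784 bp per Mb.

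Among the members, the share of the window covered, averaged over the 5 libraries other than HOM replicate 2, ran from 30.9 ± 22.9% at Bag3 (SD, n = 5) through 16 ± 13.1% at Hspb7, 14 ± 14.7% at Hspb2, 11.7 ± 8.53% at Hspb6, 10.3 ± 7.71% at Hspb3, 10.1 ± 10.9% at Cryab and 8.18 ± 8.79% at Hspb8 to 4.43 ± 4.75% at Hspb1. The SDs of all neighbours in this order overlapped. Within libraries the ends of the order held: Bag3 had the highest share in each of the 5 libraries, narrowly in WT replicate 1 (4.79% against 4.72% at Hspb7). Hspb1 had the lowest in each WT library (0.924%, 7.06% and 11.4%) and in HOM replicate 1 (2.74%), and shared 0% with Hspb8 in HOM replicate 3.

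**Figure D5:**
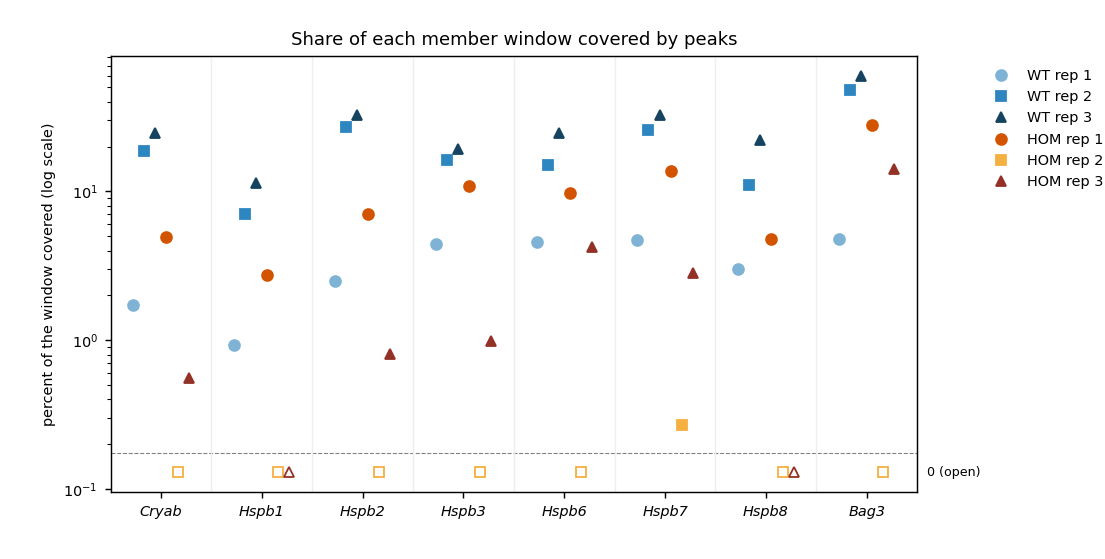
Percent of each window covered by peaks on a log axis, with 1 point per library and windows without a peak drawn as open symbols below the dashed line. Bag3 reaches 47.9% and 59.8% in WT replicates 2 and 3, and Hspb1 7.06% and 11.4%.

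Peaks at the chaperone partners of these genes were counted in the same way. The list of 30 genes includes those for Hsp70 and Hsp90 chaperones, the chaperonins Hspd1 and Hspe1, J-domain proteins, Bag family members, heat shock factors and clients. Of them, 24, 30 and 30 had a peak in their window in the WT libraries against 29, 1 and 18 in HOM. Over all genes the shares were 26.2%, 50.8% and 60.4% in WT, then 40.6%, 2.44% and 20.5% in HOM. In all libraries except HOM replicate 2 it was 17 of the 30, or 56.7%, against 16.5% of all genes, and Bag2, Bag6, Des, Dnaja4, Dnajb4 and Dnajb5 come first among them by alphabet. Gene length was not matched here. Hspd1 and Hspe1, also counted, had equal covered lengths in WT replicate 1 (359 bp) and HOM replicate 3 (171 bp). The 17 may thus not be separate loci. Des, which encodes desmin, a client of Cryab, had 9.89%, 37.8% and 55.4% of its window covered in WT against 26.3%, 0% and 9.19% in HOM. The covered lengths of WT libraries all lay above those of HOM libraries at 2 of the 30 genes, Hsp90aa1 and Bag4, which were named after their values were seen, and the reverse at 0 (3.49% and 0% of all genes). Among 4 small heat shock proteins of other organs, Odf1, a sperm tail gene, had no peak in any library. Cryaa, of the lens, and Hspb9, of the testis, had peaks in their windows in all libraries except HOM replicate 2. Cryaa was covered to 1.74%, 3.66% and 5.93% in WT against 2.93%, 0% and 2.06% in HOM. Hspb9 was covered to 0.935%, 8.47% and 20% in WT against 3.82%, 0% and 1.87% in HOM. Its shares lay above those of the member Hspb1 in every library except HOM replicate 2. The windows of 10 kb on each side also take in neighbouring genes.

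Across the loci, 71 merged regions were called in any library, of which 9 (12.7%) were called in all WT libraries and in HOM replicates 1 and 3, against 5.03% of 114976 regions genome-wide. A region counts for a library when any of its peaks lies in it, and the peaks need not share a base. The region of 3315 bp at Hspb3 is among the 9, with 0 bases under a peak in all 5 libraries. Of the 71, 45 (63.4%) were called in WT libraries alone and 2 (2.82%) in HOM libraries alone, against 72.8% and 3.47% genome-wide, where the WT lists are longer on the whole. At the members 0 were called in every WT and in no HOM library, against 1.03% genome-wide.

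The genes nearest in covered length over the 6 libraries, by Euclidean distance of log2(bp + 100), were Synj2 (distance 0.71) and Otulin (0.961) for Bag3. For Hspb7 they were Pacsin3 (0.286) and Arfgap2 (0.293), which are neighbours on chromosome 2 and share peaks. For Cryab they were Sem1 (0.392) and Rnf167 (0.441). All genes share the differences in list length between libraries, which this distance includes.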

How the data were processed

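Peak lists of 6 CUT&RUN libraries were used, 3 per genotype, grouped and numbered by their titles. The notes on processing by the submitters name the aligner BWA, the peak caller MACS2 and mm10. Versions are not given in the sources used here. Each library has its own deposited list in the MACS2 narrow peak layout. For each peak the lists give a fold enrichment (a ratio to background), a score, the −log10 of p and of q, and the summit, all as the authors' peak caller set them. Folds and q were used only within a list, for description, ranking and filtering.

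Gene positions, 1-based, came from RefSeq GRCm38.p6, the assembly of mm10, with 8 of 8 symbols matched, and start sites and strand from its promoter sequences. Peaks were united per library, and peaks of all libraries that touched formed 1 region. The rank of a peak is 1 plus the number of peaks with a higher fold, and many peaks are tied. Differences (HOM minus WT) were tested for every protein-coding gene with two-sided exact permutation tests and adjusted by Benjamini-Hochberg. The members, lists and tests were chosen with earlier results of these data known. All members were named. Of the lists, genes with a peak in every library except HOM replicate 2, or in none, were named, up to 6 each by alphabet. For the 3 members with the highest mean covered length, the 2 nearest genes outside the members' windows were named. Coverage and tests were tested on simulated data. Alternatives were other windows, peak filters, list lengths and scalings, and leaving out each library. Python 3.11.15, numpy 2.4.6, pandas 2.3.3 and matplotlib 3.10.9 were used.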

Additional observations from a re-analysis of the deposited data

How the results depend on the processing

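Depth is unknown, list length differs widely between libraries, and no exact test here can go below 0.1, so a kept sign is no sign of a significant difference. The cause was not tested for any change below. Leaving the replicate block aside, 90 alternative values of covered length in bp kept their sign, 1 reversed and 5 were 0, and in bp per Mb 83 kept it, 8 reversed and 5 were 0. The zeros came from the shortest lists, at Cryab, Hspb1, Hspb2, Hspb3 and Hspb6. With every list limited to the length of the shortest (1462 peaks), Hspb7 turned to 22 bp and Bag3 to -1690 bp per Mb, 0 members had a peak in all WT or in all HOM libraries, and 0 were separated with WT higher per Mb. With 5 lists of 15184 peaks, HOM replicate 2 excluded, Hspb6 turned to 97.91 bp per Mb, 1 member was separated with WT higher in bp and 1 with HOM higher per Mb, and 6 had a peak in all HOM libraries. With a −log10 q of at least 5, Hspb6 turned to 35.6 and Hspb7 to -72.76 bp per Mb, 1 member was separated with WT higher in bp, 4 members had a peak in all WT libraries and 0 in all HOM libraries. Over the gene body plus 20 kb, Hspb1 turned to 71.04 bp per Mb.

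Leaving out 1 library at a time, the difference per Mb ran from -57.63 to 49.37 at Hspb6, which turned without WT replicate 1 (9.303) and without HOM replicate 2 (49.37), and from -125.8 to 552.4 at Bag3, which turned without HOM replicate 3 (-125.8). The members separated with WT higher numbered 0 to 8 in bp (8 without WT replicate 1 and 7 without HOM replicate 1) and 1 to 5 per Mb (4 and 5 without the same libraries), those with HOM higher per Mb 0 to 1, and those with a peak in all HOM libraries 1 to 6. Merging over gaps up to 500 bp gave 28 regions in place of 71. The labels do not say whether replicate numbers pair the libraries. Deviations of same-numbered libraries correlated at -0.641, -0.398 and -0.212, and those of differently numbered ones at -0.418 to 0.54. List length differs widely between libraries and may enter these deviations, so they cannot decide whether libraries were paired. The replicate block cannot change a mean difference in this balanced design (-10190 bp at Bag3 in both). Its exact sign-flip p, at least 0.25 by design, was 0.5 for all covered lengths in bp, and per Mb it was 0.25 at Hspb8, Hspb7 and Hspb3, 0.5 at Cryab, Hspb1 and Hspb2, 0.75 at Bag3 and 1 at Hspb6.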

Other observations

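Some peaks in the windows lay on neighbouring genes. At Psenen, past Hspb6, WT libraries had 1, 2 and 2 peaks and HOM libraries 2, 0 and 2. The strongest peaks of the Hspb6 window in WT replicate 1 (fold 5.24, rank 4654 of 21340) and HOM replicate 3 (fold 5.88, rank 1471 of 15184) lay there. In 2310030G06Rik, which overlaps the lower end of the Cryab span, WT replicates 2 and 3 had 5 peaks each, covering 1796 and 2437 bp, and the other libraries had 0.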
